A study of Canis lupus familiaris with 11 samples.

Results

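SMARCA5 (ENSCAFG00000007525) was examined along its length in poly(A) RNA of canine osteosarcoma, bone cancer that arises spontaneously in dogs. In the annotation used by the authors the gene lies on the plus strand of chromosome 15 of CanFam3.1, from 42731532 to 42771601. Its members were all 24 exon bins listed under this identifier, out of 217945 bins of 24390 genes. An exon bin is a piece of an exon left after overlapping transcripts of a gene have been flattened, and bin 1 is the one closest to the 5′ end. The lengths of the bins and the coding or untranslated parts they cover were not analysed here, so levels of different bins are not set against each other per length. The gene came into view through measured values: bins 19 and 20 had been selected on their low coefficient of variation (*CV*) over these and further libraries, and the gene was chosen by the opposite signs of the differences of its gene sum and of that pair. Differences of the gene sum, of the pair and of the slope along the gene between lines and tissues belong to that choice, and are given below as descriptions, with no test.

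The 11 libraries comprised 8 of tumour tissue and 3 of cell lines, which are primary cultures of tumour cells. The tissues came from 8 dogs, labelled 1033 (Boxer), 1091 (Leonberger), 0320 (mixed breed), 0460 (Landseer), DOS-119 (Great Pyrenees), DOS-126 (Great Dane), DOS-127 (English Mastiff) and DOS-71 (Golden Retriever), aged between 4 years and 6 months and 12 years and 6 months at diagnosis. DOS-126 was male and the other tissue donors were female. The lines were OSCA-30 (male German Shepherd), OSCA-32 (female Great Pyrenees) and OSCA-40 (female Saint Bernard), from dogs between 5 years and 8 months and 8 years and 7 months of age. Tissue 1033 is described as a lung metastasis, 0320 as an osteochondrosarcoma and the tumour behind OSCA-32 as fibroblastic. The treatment labels differed between dogs (CARBO, AMP, EUTH at Dx, SOC, PALL), but the methods state that all material was taken before cytotoxic drugs were given. No normal bone or osteoblast library was used here, and a tissue library may hold RNA of stroma, vessels or blood cells that a culture lacks.

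The RNeasy Fibrous Tissue Mini Kit had been used for RNA of 1033, 1091, 0320 and 0460, TRIzol for the DOS tissues and the RNeasy Mini Kit for the lines. Kit and kind of sample cannot be told apart. Headers of the deposited table carry a lane label. The 4 tissues of the fibrous tissue kit, OSCA-30 and OSCA-32 share L006, whereas the 4 TRIzol tissues and OSCA-40 share L007. The libraries held between 3123757 counted reads in DOS-71 and 24902774 in DOS-119, with 17540093 in OSCA-30, 3471461 in OSCA-32 and 21270199 in OSCA-40. A single read was worth between 0.354 and 3.0 deposited units, so that values of DOS-71 and OSCA-32 carry the largest counting error.

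SMARCA5 encodes SNF2H, the ATPase that drives most chromatin remodelling complexes of the ISWI family. These complexes slide nucleosomes along DNA and space them evenly, using energy from ATP, and they serve in DNA replication, repair and transcription. The partner subunit sets the task: BAZ1A directs the ATPase in ACF and CHRAC, BAZ1B in WICH, BAZ2A in the silencing of ribosomal genes, and RSF1 in the assembly of nucleosomes. Cells that divide need the enzyme throughout the cell cycle, and its transcript is found in nearly every tissue. Of the 34 symbols listed for ISWI, its partners, other remodellers and cohesin, 1 (SMARCA5 itself) could be paired with an identifier of the table, and of 21 markers of bone, cartilage, muscle, blood and vessel cells 0 could be paired. The partners and the markers were therefore not analysed here, and the identity of the tissues could not be checked against them.

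The gene sum, that is, the deposited values of the 24 bins added up, lay within less than a 2-fold range. In tissues it was 2924 in 1033, 2031 in 1091, 2322 in 0320, 2023 in 0460, 3297 in DOS-119, 2433 in DOS-126, 2614 in DOS-127 and 2000 in DOS-71 (mean 2456 ± 470 SD, n = 8). In lines it was 2345 in OSCA-30, 3676 in OSCA-32 and 2606 in OSCA-40 (mean 2876 ± 705 SD, n = 3). OSCA-32 was thus the highest of all libraries, while both other lines lay among the tissues and below the tissue DOS-119. In ascending order, the 95% Poisson intervals (which cover counting error only) overlapped between neighbours for DOS-71, 0460 and 1091, for 0320, OSCA-30 and DOS-126, and for OSCA-40 and DOS-127. They did not overlap between 1091 and 0320, DOS-126 and OSCA-40, DOS-127 and 1033, 1033 and DOS-119, or DOS-119 and OSCA-32.

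On the log2(value + 1) scale, the mean gene sum of the lines was 0.22 above that of the tissues, a 1.17-fold difference that is within the spread of the tissues. It was 0.49 with factors from the median ratio of gene sums and 0.40 with equal totals of reads. It also rested on 1 library: without OSCA-32 the difference was 0.03, and without both OSCA-32 and DOS-71, the libraries with the fewest reads, it was -0.01. Within lane label L006 it was 0.35 and within L007, which holds OSCA-40 as the only line, it was 0.03. The median of 13858 genes with a mean sum of at least 10 was 0.37 lower in lines on the same scale, so that SMARCA5 lay 0.59 above the median gene. Of these genes, 25.8% had a larger difference. Since these are bulk samples, more cells that express the gene and more RNA of it per cell cannot be told apart.

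Bins 19 and 20 behaved otherwise. The mean of the pair was 145 in 1033, 139 in 1091, 113 in 0320, 122 in 0460, 150 in DOS-119, 128 in DOS-126, 117 in DOS-127 and 103 in DOS-71. It was 98.8 in OSCA-30, 120 in OSCA-32 and 111 in OSCA-40. OSCA-32 and OSCA-40 thus lay among the tissues and OSCA-30 lay below them all, although by less than the counting interval of DOS-71, which spans 80.5 to 131. The group means were 127 ± 16.5 (SD, n = 8) in tissues and 110 ± 10.6 (SD, n = 3) in lines, a log2 difference of -0.20. Relative to the median gene sum the pair was 0.17 higher in lines, but this sets bins against whole genes. The median difference of single bins was -0.11 for bins with a mean of at least 10. For bins with a mean of at least 50 it was -0.26. The pair thus lay below the first of these medians and above the second. The share of the pair in the gene sum was between 8.94% and 13.7% in tissues, with a median of 10.1%. In lines it was 8.42% in OSCA-30, 6.52% in OSCA-32 and 8.51% in OSCA-40, below each tissue. The Wilson intervals of OSCA-30 (7.57% to 9.36%) and OSCA-40 (7.89% to 9.17%) overlapped that of the lowest tissue, DOS-127 (8.29% to 9.64%), whereas that of OSCA-32 (5.39% to 7.87%) did not. The difference of the mean shares was -2.72 percentage points, with -3.88 within L006 and -1.22 within L007.

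**Figure D1:**
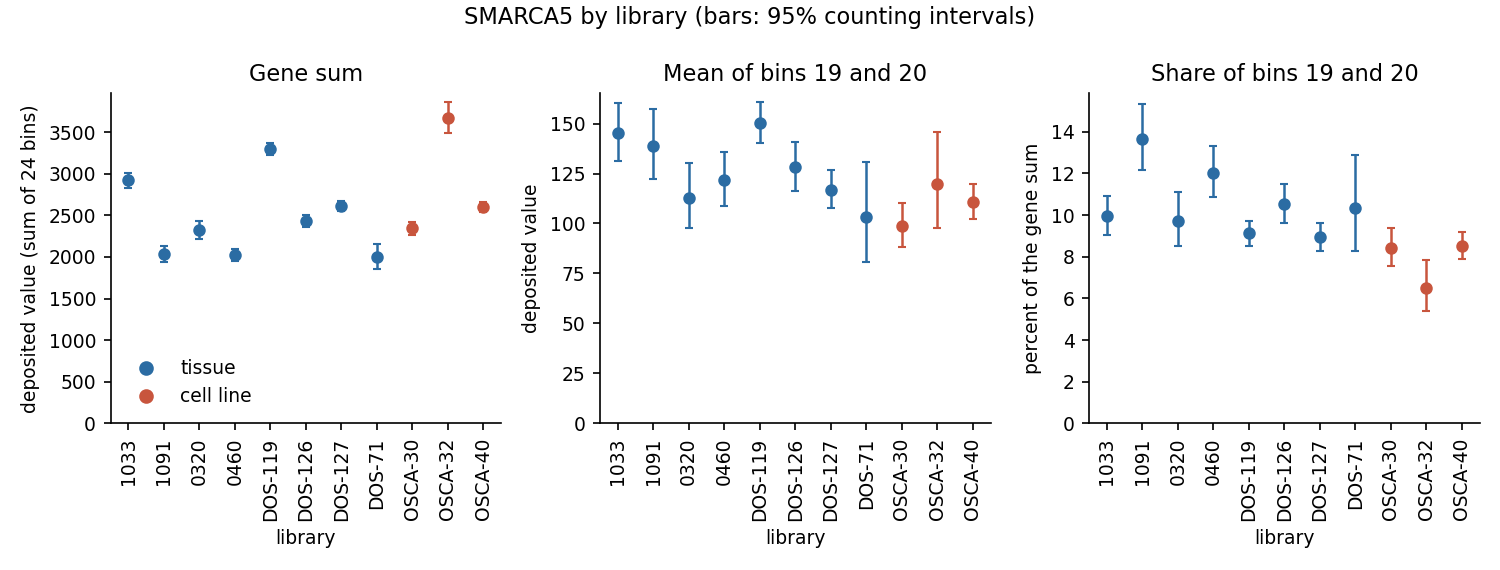
Gene sum, mean of bins 19 and 20 (both as deposited values) and share of these bins in the gene sum (percent) are plotted for each library, tissues in blue and cell lines in red, with 95% counting intervals (Poisson for values, Wilson for shares). OSCA-32 has the highest gene sum, whereas its share of 6.52% is the lowest of the 11 libraries.

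The bins did not all differ in the same direction. At the 5′ end the lines were high: bin 1 had values between 14.7 and 72.6 in tissues (median 26.9), against 75.6 in OSCA-30, 50.3 in OSCA-32 and 82.4 in OSCA-40. Here OSCA-32 lay among the tissues and both other lines lay above them. Bin 3 had values between 23.7 and 87.9 in tissues (median 45.8), and 107, 182 and 95.8 in OSCA-30, OSCA-32 and OSCA-40, so that the groups did not overlap. Toward the 3′ end the order turned. Bin 24, the last one and the bin with the largest share of the sum, had 491 in 1033, 418 in 1091, 415 in 0320, 407 in 0460, 439 in DOS-119, 590 in DOS-126, 295 in DOS-127 and 228 in DOS-71. It had 159 in OSCA-30 and 158 in OSCA-40, which is below each tissue, and 312 in OSCA-32, which lay between tissues.

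**Figure D2:**
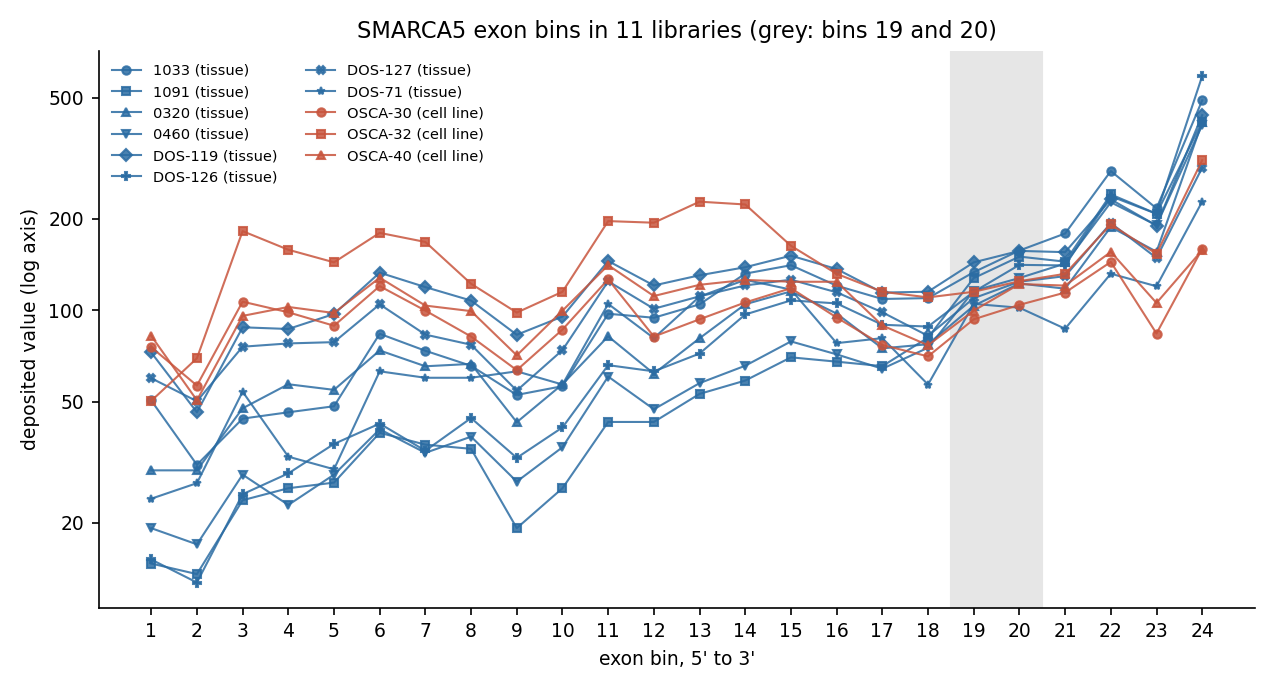
Deposited values of the 24 bins of SMARCA5 (log axis) are drawn against bin number from 5′ to 3′, with a line for each of 8 tissues (blue) and 3 cell lines (red). The libraries are spread widely in bins 1 to 7, draw together at bins 19 and 20 (grey), where values lie between 93.4 and 157, and part again toward bin 24.

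The log2 difference of lines against tissues declined along the gene with few interruptions. It was 1.14 in bin 1, 1.17 in bin 2, 1.48 in bin 3 and 1.44 in bin 4, then 0.77 in bin 8, 0.51 in bin 14 and 0.11 in bin 17. In bin 18 it was 0.00, in bins 19 and 20 it was -0.21 and -0.20, and in bins 21 to 24 it was -0.14, -0.38, -0.67 and -0.99. Bins 1 to 18 were thus higher in lines on average and bins 19 to 24 lower. The place at which the sign turns depends on the scaling of libraries. With factors from the median ratio of gene sums the last bin with a higher mean in lines was bin 21, and the difference of the pair became 0.064; with equal totals of reads it was also bin 21, although bins 19 and 20 stayed below 0 with -0.02 for the pair. Under the 3 scalings the difference in bin 24 was between -0.99 and -0.72 and that in bin 3 between 1.48 and 1.74.

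Added up over bins on the scale of deposited values, the difference of the gene sum was 420. It consisted of 789 from the 18 bins that were higher in lines and -369 from the 6 bins that were lower. The first 7 bins gave 407 and bins 8 to 18 gave 382. On the negative side bin 24 alone gave -201, bins 22 and 23 gave -53.2 and -65.3, and bins 19 and 20 gave -16.5 and -18.3, hence -34.8 together. The pair was therefore a small item in a sum that was made up of a gain over most of the gene and a loss at its end. Taken apart, bins 1 to 18 added up to 1257 ± 418 (SD, n = 8) in tissues and 2046 ± 531 (SD, n = 3) in lines, and bins 19 to 24 to 1198 ± 232 in tissues and 830 ± 175 in lines. The corresponding log2 differences were 0.74 and -0.52. Without bin 24 the gene sum differed by 0.39 on the log2 scale instead of 0.22.

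**Figure D3:**
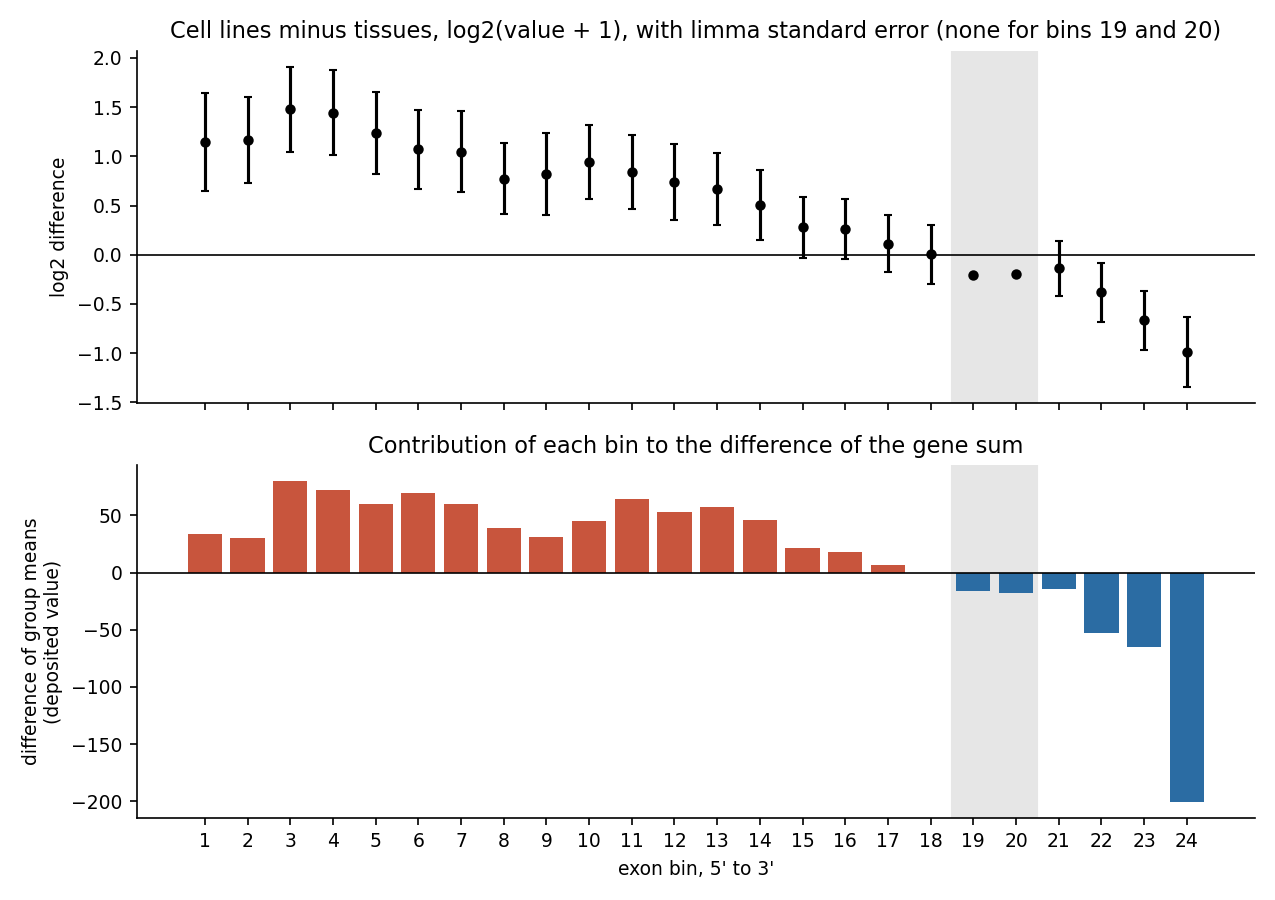
The upper panel shows the log2(value + 1) difference of cell lines minus tissues for each bin, with the standard error from limma except in bins 19 and 20. The lower panel shows the difference of the group means in deposited units. Differences run from 1.48 in bin 3 to -0.99 in bin 24, and bin 24 alone subtracts 201 from the gene sum.

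Single bins were tested with limma over all bins of the table with a mean of at least 10, leaving bins 19 and 20 of SMARCA5 as descriptions. The tests belong to the contrast by which the gene was chosen, so that a call adds no independent support. Of the other 22 bins, 2 were higher in lines after Benjamini-Hochberg adjustment at 0.05, and 0 were lower. Over all 101531 bins tested, 4.55% were called higher and 9.25% lower. The 2 of 22 bins are a larger share than the 4.55%, but a small count of bins that share transcripts, and the excess was not tested. Bin 3 rose by 1.48 ± 0.43 (log2, SE; adjusted p = 0.038, limma) and bin 4 by 1.44 ± 0.43 (adjusted p = 0.041, limma); in both the 3 lines exceeded the 8 tissues. Bin 4 had values of 98.5, 158 and 103 in OSCA-30, OSCA-32 and OSCA-40, against 22.9 to 86.8 in tissues. Both calls were lost without any one of the 3 lines, without 1033, 1091, 0460 or DOS-126, with equal totals, or without OSCA-32 and DOS-71 together; 4 more settings (without 0320, without DOS-71, without a filter, edgeR) kept 1 of them. With the lane label as a term in the fit, added later, both were still called. At an unadjusted p under 0.05 (limma), 9 of the 22 bins were higher and 2 lower, against 12.8% and 18.6% of all bins. The share of higher bins was thus above that of all bins and the share of lower bins below it, which was not tested either. The groups did not overlap in bins 2, 3 and 4, where the lines were above; over all tested bins 5.92% had each line above each tissue and 8.37% each line below, which was the case in 0 of the 22 bins of SMARCA5.

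Relative exon use, the log2 difference of a bin minus that of the remaining bins of its gene, was tested with the diffSplice function of limma. These tests, too, belong to the contrast by which the gene was chosen, and a call adds no independent support. Relative use was highest in bins 3, 4 and 5, with 0.96, 0.92 and 0.71. It was lowest in bins 24, 23 and 22, with -1.63, -1.29 and -0.99 (SE 0.36 each). Positive values were found in 13 of the 22 bins, namely bins 1 to 13, and the 9 bins from 14 on had negative ones. Of these, 1 passed the adjustment, bin 24, which fell by 1.63 against the other bins (adjusted p = 0.011, diffSplice of limma). Bin 23 did not (adjusted p = 0.10, diffSplice of limma), nor did bins 3 and 1 (adjusted p = 0.39 and 0.89, diffSplice of limma). The standard error behind these p-values is pooled over the bins of the gene as if they were independent. As the bins share transcripts and libraries, the p-values may be too small. Over all 98960 bins tested in genes with several bins, 0.0627% were called higher and 0.200% lower. The call of bin 24 was lost without any one of the 3 lines (relative use -1.59, -1.77 and -1.51; lowest adjusted p = 0.064, diffSplice of limma) or without DOS-126, and with edgeR on the recovered reads. The share of bin 24 in the gene sum was between 11.3% and 24.2% in tissues, and it was 6.80% in OSCA-30, 8.47% in OSCA-32 and 6.05% in OSCA-40. Bins 1 to 7 together made up between 8.01% and 20.3% of the sum in tissues but 27.5%, 25.9% and 25.4% in OSCA-30, OSCA-32 and OSCA-40.

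Bins of 1 gene share its transcripts, and so the gradual change was condensed into 1 value per library. The slope is that of a least-squares line through log2(value + 1) of 22 bins (without bins 19 and 20), each taken relative to its mean over libraries, on bin order from the first to the last bin; a positive slope means relatively more reads toward the 3′ end. In tissues it was 0.69 in 1033, 1.70 in 1091, 0.20 in 0320, 1.39 in 0460, -0.50 in DOS-119, 1.82 in DOS-126, -0.64 in DOS-127 and -0.03 in DOS-71. In lines it was -1.71 in OSCA-30, -1.36 in OSCA-32 and -1.55 in OSCA-40. Each line lay below each tissue, and the tissues were spread over more than the gap between the groups. The mean slope was 0.58 ± 0.97 (SD, n = 8) in tissues and -1.54 ± 0.17 (SD, n = 3) in lines, a difference of -2.12. Within L006 the difference was -2.53, and within L007, with 1 line, it was -1.71. A straight line accounted for 77.9% of the variance of the relative bin values within libraries. A gene with a higher sum and a lower pair near its 3′ end would be chosen with such a slope, and so the difference between lines and tissues restates the choice of the gene and has no test.

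A like slope was seen in other genes of these libraries. For the 44 other genes in the study's list of stable genes with a single symbol, a known strand and at least 5 bins, the same slope was computed from 5′ to 3′; this comparison was chosen after the slopes of SMARCA5 had been seen. The median over these genes was between -0.26 and 0.95 in tissues, and -0.78, -0.61 and -0.89 in OSCA-30, OSCA-32 and OSCA-40. In 44 of 44 genes the mean slope was lower in lines, by 0.12 to 3.82 with a median difference of -1.10, and 3 genes had a larger difference than SMARCA5. Each line lay below each tissue, as in SMARCA5, in 20 of the 44 genes. The genes share the libraries and were listed for their stability, so they are not independent cases. Across the 8 tissues alone, the slope of SMARCA5 went with this median (Pearson's r = 0.96, exact permutation p = 0.00045, adjusted over both coefficients 0.00089; Spearman's rho = 0.93, exact permutation p = 0.0022, adjusted 0.0022). Without DOS-126 and DOS-119, the tissues farthest from the median, r was 0.95. The lines form a cluster of their own with too few samples for a coefficient, and each lane label holds only 4 tissues. When the median slope of the 44 genes was subtracted from that of SMARCA5, a difference of -1.08 between lines and tissues remained. When the median was instead entered into the test of relative exon use as a covariate, 0 bins passed. However, this covariate separates lines from tissues completely. Calls over all 98960 bins fell from 62 higher and 198 lower to 2 and 23. The fit therefore cannot tell the shared slope from the kind of sample. Bin 24 went from -1.63 to -0.13 and bin 3 from 0.96 to 0.23, while bin 1 reversed from 0.61 to -0.46 and bin 22 from -0.99 to 0.14. The sign changed in 12 of 22 bins, and no value exceeded 0.46 in size. Both settings were added after the data had been seen. What sets the slope of a library was not tested. The kit, lane label and kind of sample are partly confounded, and RNA integrity values per library were not used here. The methods state that only RNA with an integrity number of at least 8 went into sequencing libraries.

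**Figure D4:**
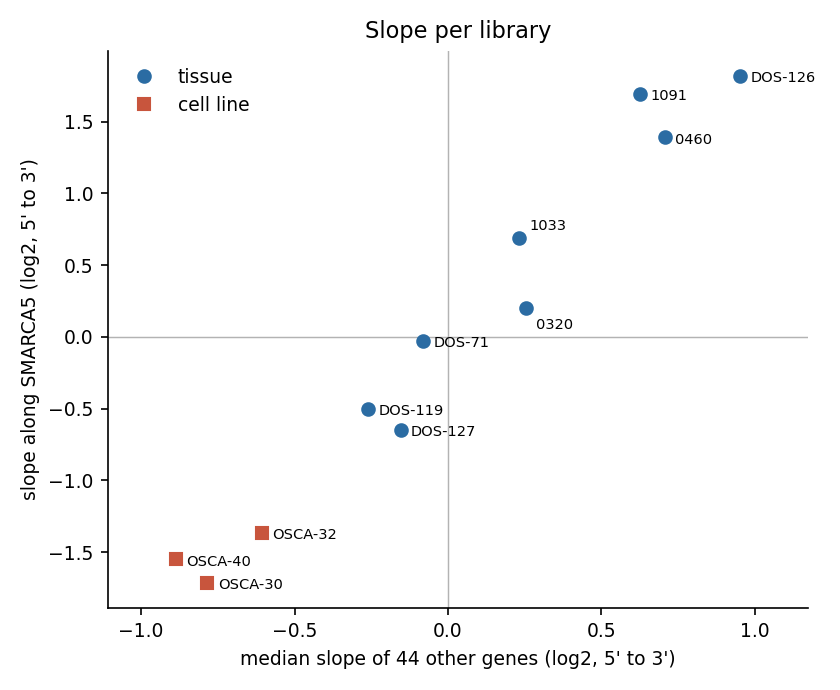
Each point is a library, with the median slope of 44 other genes on the horizontal axis and the slope along SMARCA5 on the vertical axis, both as log2 change from the first to the last bin relative to the mean of all libraries. Tissues (circles) extend from -0.64 to 1.82 along SMARCA5, and the 3 cell lines (squares) lie below them between -1.71 and -1.36.

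Within the tissues, the slope was compared between kits. The mean slope was 0.995 in the 4 tissues of the fibrous tissue kit and 0.16 in the 4 TRIzol tissues, a difference of -0.83. It did not pass the test (exact permutation p = 0.26, and 0.39 after adjustment together with the tests of pair share and gene sum). Mean shares of the pair were 11.3% and 9.73% (difference -1.62 percentage points). The gene sums differed by 0.15 on the log2 scale, TRIzol being higher. The pair and the gene were selected on low variation over libraries that include these tissues. The tests of share and gene sum therefore enter only the adjustment, and both differences are given as descriptions. With 4 against 4 samples the smallest two-sided p is 0.029, and kit and lane label coincide in the tissues.

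The crossing of the profiles is also where the variation was lowest. The *CV* over the 11 libraries was 0.57 ± 0.11 (jackknife SE) in bin 1, reached 0.67 ± 0.18 in bin 3 and declined to 0.21 in bins 17 and 18. It was 0.13 ± 0.03 in bin 19 and 0.15 ± 0.03 in bin 20, and went up again over 0.18 in bin 21, 0.23 in bin 22 and 0.28 in bin 23 to 0.39 ± 0.08 in bin 24. Read counting alone would give 0.096 in bin 19 and 0.090 in bin 20, so that counting takes up a good part of their *CV*, but only 0.054 in bin 24. Of the 23 pairs of neighbouring bins, bins 19 and 20 had the lowest *CV* with 0.14 ± 0.02, followed by bins 18 and 19 with 0.16 and bins 20 and 21 with 0.16. Over the 8 tissues alone the same pair ranked first with 0.13, and it ranked first under each of the 3 scalings, although its *CV* was 0.19 with equal totals. The *CV* of the gene sum was 0.21 ± 0.05, against a median of 0.55 over all 13858 genes; it was 0.28 with the median ratio of gene sums and 0.32 with equal totals. Low *CV* chose this pair, and so these values describe it and are no test of it.

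**Figure D5:**
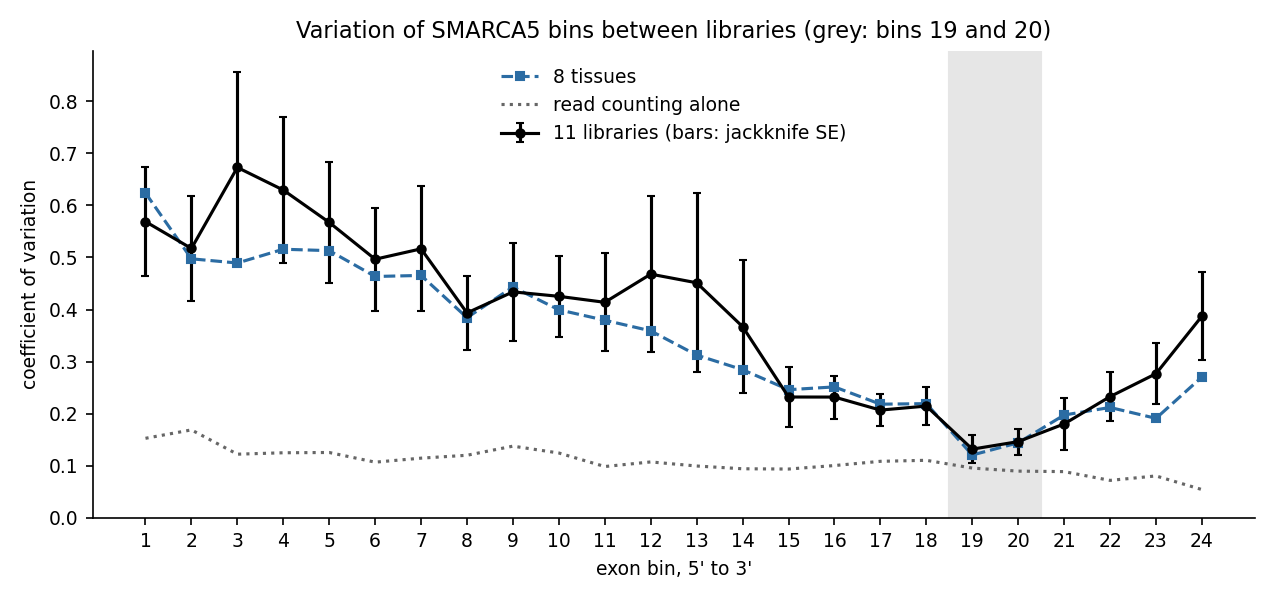
The coefficient of variation of each bin is given over 11 libraries (black, jackknife SE) and over 8 tissues (blue), beside the value that read counting alone would give (dotted). Both curves are lowest at bin 19 (0.13 and 0.12) and increase toward either end of the gene.

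SMARCA5 was not alone in having a pair that differs from its gene. Besides it, 9 genes with a selected pair of neighbours could be paired with a single identifier, all of them known for basic cell functions. The difference of the pair minus that of the gene sum (log2, lines against tissues) was -0.43 in SMARCA5. It was -0.50 in XPO1, the nuclear exporter of proteins, and -0.46 in ANKFY1, an endosomal protein. It was -0.12 in HNRNPR, -0.06 in LSM14A of the P-bodies, -0.06 in EMC4 of the ER membrane complex and 0.03 in HNRNPUL1. On the other side it was 0.12 in NADK, the kinase that makes NADP, 0.27 in the splicing regulator HNRNPL and 0.34 in THOC5, a subunit of the mRNA export complex THO. The order followed the place of the pair in the gene, counted in bins from 0 at the 5′ end to 1 at the 3′ end. This place was 0.85 in XPO1, 0.89 in ANKFY1 and 0.80 in SMARCA5, between 0.57 and 0.72 in the 4 genes with differences between -0.12 and 0.03, and 0.32, 0.29 and 0.38 in NADK, HNRNPL and THOC5. Across these 10 genes Pearson's r between place and difference was -0.94, as a description, since the genes share the libraries and were selected on them. A gene sum that was higher and a pair that was lower in lines occurred in 3 of the 10 genes, SMARCA5, XPO1 (0.32 and -0.18) and HNRNPR (0.12 and -0.01), on the deposited scaling. The count was 1 (SMARCA5) with equal totals and 0 with the median ratio of gene sums.

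Among all 4012 genes with at least 10 bins tested, the range of bin differences within a gene had a median of 1.59 on the log2 scale. SMARCA5 had a range of 2.47, and 15.9% of these genes had one at least as wide. A range widens with the number of bins and with counting error, and neither was matched between genes. The SD of the bin differences was 0.68 in SMARCA5 against a median of 0.46, and 15.9% of the genes had one at least as large.

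Of 46 other genes with a symbol, those with gene sums most like SMARCA5 over the 11 libraries were USP16, a deubiquitinase of histone H2A (Pearson's r of log2 values 0.83), HNRNPR (0.56), GTF3C2, a subunit of the polymerase III factor TFIIIC (0.53), CCZ1, which acts in endosome maturation (0.41), and XPO1 (0.39). Over the 8 tissues alone, r was 0.72 for USP16 and at most 0.25 for the other 4. USP16 had 1282 in OSCA-32, where SMARCA5 was also highest, 642 in OSCA-30, 757 in OSCA-40 and between 584 and 985 in tissues. These coefficients are descriptions over libraries that share their depth and scaling.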

How the data were processed

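Poly(A) RNA of 8 osteosarcoma tissues and 3 cell lines was analysed. The authors demultiplexed the reads with CASAVA 1.8.2, aligned them with TopHat to CanFam3.1, counted unique reads on flattened exon bins of Ensembl release 73 with the DEXSeq scripts, and divided the counts by 1 factor per library. The values that the authors deposited are thus a normalized signal; how the factors were obtained is not given in the sources used here. The submitters' processing notes also name Cufflinks and SAMtools. Dividing by the smallest step of a library gave whole reads for 100% of its values (tolerance 0.05 reads).

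limma 3.58.1 (trend, and diffSplice for relative use; R 4.3.3) was fitted to log2(value + 1) over the whole table, for bins with a mean of at least 10, with Benjamini-Hochberg adjustment at 0.05. edgeR 4.0.16 and DESeq2 1.42.0 were run on recovered reads as alternatives. The slope was compared between kits, and with other genes across tissues, by two-sided exact permutation tests (Python 3.11.15, scipy 1.17.1). Pair share and gene sum were put to the same test between kits, but these tests served only in the adjustment. The fits were tested on simulated reads in which each bin was drawn independently. Those reads held no slope along genes and no link between bins of a gene, so they cannot show how such links affect the p-values. Fold changes on the log2(value + 1) scale understate changes of low bins, which held as few as 8 reads. Nothing in the labels says that a tumour or culture was sampled more than once, and each library was taken as 1 replicate.

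SMARCA5, the gene lists and the tests were chosen with earlier results of these data known. Bins were named by a rule: bins 19 and 20, the first, last and largest bin, the 3 highest and 3 lowest in relative use, and those called; further bins are given for the profile and were chosen after their values were seen. Genes named beside it were the 5 most like it in gene sum and those with a selected pair. Symbols came from the study's lists; 0 identifiers could be paired through the reference table. Alternatives were other scalings, filters, pseudocounts and tools, and leaving out each library. Genomic sequences were not analysed here.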

Additional observations from a re-analysis of the deposited data

How the results depend on the processing

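Scaling by the median ratio of gene sums raised the gene-sum difference to 0.49 (log2) and that of bins 19 and 20 to 0.064. The scaling shifted the median gene sum likewise, and both stayed 0.60 and 0.17 above it. The median difference of single bins with a mean of at least 10 went from -0.11 to 0.17, and the pair stayed below it. With equal totals the *CV* of the pair was 0.19. Taken of the sum without bin 24, the share of the pair differed by -4.37 percentage points. The count of bins called higher in level (2) was 0 with equal totals, 1 without a filter, 1 with edgeR, 0 without OSCA-32 and DOS-71 together, and between 0 and 3 without single libraries. The count called lower (0) was 1 with DESeq2, 1 without OSCA-32 and DOS-71, and between 0 and 1 without single libraries. For relative use, the count of lower bins (1) was 0 with edgeR, 0 with the slope of other genes as a covariate, and between 0 and 2 without single libraries (2 without DOS-119). With that covariate, which separates lines from tissues completely, the direction of bin 1 reversed to -0.46 and that of bin 22 to 0.14. With the lane label as a term, added after the data were seen, the counts were again 2, 0 and 1. The slope difference stayed between -2.29 and -1.94 without single libraries, and was -2.53 in L006 and -1.71 in L007. Where no value above shows it, the cause was not tested. No paired analysis was possible because the lines and the tissues came from different dogs. The lane term stands in for a batch only. The kit differences kept their directions under the alternatives run. Depth limits DOS-71 and OSCA-32 most, with 667 and 1534 reads on SMARCA5.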
